A study of Mus musculus with 816 samples.

Results

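The genes described here are 10 receptor genes of innate immunity, the Toll-like receptor genes Tlr1, Tlr2, Tlr3, Tlr4, Tlr6, Tlr7, Tlr8, Tlr9 and Tlr13 and the co-receptor gene Cd14. They were chosen by name, as 10 of 45581 genes in a table of cultured mouse microglia and 10 of 29858 genes in a table of microglia isolated from mice. The cultures were 784 wells of commercial primary microglia from newborn mice, spread over 10 plates and 3 cell lots, left untreated or given a stimulus for 4, 24 or 72 h. The labels name 98 combinations of stimulus and time, of which 97 had at least 3 cultures. The 32 mouse samples were microglia of C57BL/6 mice, taken after perfusion and sorted magnetically on CD11b, a surface protein that peripheral monocytes and neutrophils also carry. By flow cytometry, the paper reports, most cells sorted this way were low in CD45, as it describes for microglia, and few were high.

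The receptor ligands were lipopolysaccharide at a high dose (LPS_hi, 0.0001 µg/µl) and a low dose (LPS_lo, 0.00001 µg/µl), Pam3Cys-Ser-(Lys)4 (P3C, 0.001 µg/µl) and polyIC (IC, 0.2 µg/µl). The interferons were IFNa (0.0008 µg/µl), IFNb and IFNg (0.0001 µg/µl each). The untreated groups (None) held 40 cultures at 24 h and 25 at 72 h, and no untreated wells were labelled 4 h, so 4 h conditions were set against the 24 h untreated wells. In mice, females of 2 months received 2 mg/kg LPS or vehicle (PBS) and were sampled at 4 h (4 mice each), and males of 2 months (11 mice) were compared with males of 22 months (13 mice). No group carried a genetic change. Nothing ties the wells of a group to separate animals, so p-values measure the spread between wells.

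Toll-like receptors recognise microbial products and, through the adaptors MyD88 and TRIF, switch on NF-kB, interferon genes and cytokines. TLR2 pairs with TLR1 or TLR6 at the cell surface and binds bacterial lipopeptides, P3C being a ligand of the TLR1 and TLR2 pair. TLR4 recognises LPS, which CD14 hands over to it. TLR3 binds double-stranded RNA, for which polyIC is a synthetic stand-in, while TLR7, TLR8, TLR9 and TLR13 reside in endosomes and recognise nucleic acids. In the brain, microglia express much of this family, and TLR4 is known for their response to LPS.

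On GRCm38, Tlr1 (chr5:64924679-64933563) and Tlr6 (chr5:64952031-64960097) lie next to each other on the minus strand, as do Tlr8 (chrX:167242696-167264329) and Tlr7 (chrX:167304929-167330558). Tlr2 lies at chr3:83836272-83841767, Tlr3 at chr8:45395665-45411080, Tlr4 at chr4:66827584-66930284, Tlr9 at chr9:106222598-106226883 and Tlr13 at chrX:106143204-106160493. Tlr1 and Tlr6 are close copies, and their transcripts share 607 stretches of 31 bases. Only 4 of those shared stretches fall in the last 600 bases of a transcript, where a 3′-end assay reads, and no other pair of the 10 shares any. The values of Tlr1 and Tlr6 are therefore given as measured, with reads that could fit both left as the authors' counting placed them.

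The start regions of Tlr2, Tlr3 and Tlr13 are shown because Tlr2 and Tlr3 are the receptors of P3C and polyIC and Tlr13 was lower with LPS_hi, LPS_lo and P3C at 24 h. Each sequence is the RefSeq window on GRCm38.p6 from 250 bases before to 50 bases after the annotated start, printed 5′ to 3′ on the gene's strand, at chr3:83841559-83841858 (minus), chr8:45410331-45410630 (minus) and chrX:106143025-106143324 (plus). Capitals mark matches, on either strand, to the kappa B consensus of NF-kB, to the related pattern GGANNTTCC or to GAAANNGAA (a pattern of interferon-stimulated response elements). The consensus was searched after the sequences had been seen.
Tlr2: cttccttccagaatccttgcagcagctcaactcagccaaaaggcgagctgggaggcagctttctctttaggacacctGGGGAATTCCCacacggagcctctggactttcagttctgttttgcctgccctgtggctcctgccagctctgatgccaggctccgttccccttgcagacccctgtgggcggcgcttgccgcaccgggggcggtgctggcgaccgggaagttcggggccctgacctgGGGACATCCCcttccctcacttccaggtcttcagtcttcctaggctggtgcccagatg
Tlr3: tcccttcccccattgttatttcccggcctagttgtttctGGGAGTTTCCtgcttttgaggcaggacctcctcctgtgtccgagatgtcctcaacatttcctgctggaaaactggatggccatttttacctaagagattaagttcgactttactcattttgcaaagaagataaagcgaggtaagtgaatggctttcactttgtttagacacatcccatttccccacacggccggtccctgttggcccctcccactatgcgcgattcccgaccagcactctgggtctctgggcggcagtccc
Tlr13: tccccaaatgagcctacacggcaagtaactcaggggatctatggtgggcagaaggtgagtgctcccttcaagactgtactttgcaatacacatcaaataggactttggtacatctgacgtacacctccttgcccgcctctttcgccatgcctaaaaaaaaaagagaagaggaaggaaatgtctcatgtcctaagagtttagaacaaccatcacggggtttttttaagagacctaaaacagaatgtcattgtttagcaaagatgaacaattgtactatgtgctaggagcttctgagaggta
The Tlr2 window held matches to the kappa B consensus in 2 stretches, beginning at positions -173 and -8 from the start and partly overlapping on both strands. In the Tlr3 window 1 match to the consensus, at -211, overlapped 1 match to GGANNTTCC, at -210, and the Tlr13 window held no match to these letters. Over all 32851 windows in the same table, 8.46% held the consensus, 4.26% held GGANNTTCC and 8.56% held GAAANNGAA. Among the other windows, a Tlr6 window (chr5:64959117-64959416) held 2 overlapping matches to GAAANNGAA, at -115 and -109, and the Tlr8 window held 1, at -67. Entries for 7 of the 10 genes were read, and Tlr4, Tlr7 and Cd14 are named only. A match is a description of letters in these windows.

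Expression values are CPM, read counts scaled to the same total of mapped reads in every library, which were not divided by gene length, so levels are compared between conditions and not between genes. Depth was estimated from the smallest step between values. In units of 1e6 mapped reads it was 1.00 to 38.2 per culture (median 4.67) and 2.36 to 7.78 per mouse (median 4.08). In untreated 24 h cultures the microglia markers Csf1r (median 3927 CPM) and Fcrls (524 CPM) were high, but P2ry12 (3.49 CPM), Sall1 (0.41 CPM) and Siglech (0 CPM) were near 0. Some libraries stood apart from their labels over the 4000 most variable genes: 1 polyIC culture at 24 h was nearer to P3C, 2 polyIC cultures at 72 h were nearer to untreated, and 1 untreated culture at 72 h was nearer to polyIC. The polyIC results that change without them are given both ways, and leaving out the untreated culture changed no call in the ligand comparisons at 72 h. In bulk samples, fewer cells of a type and less RNA per cell cannot be told apart.

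All 10 genes entered the fit in cultures, and 8 in mice. Tlr8 was above 0 in 203 of 784 cultures but above 5 CPM in only 30, and Tlr9 was above 0 in 55 and above 5 CPM in 4. In mice Tlr8 was above 0 in 1 of 32 samples and Tlr9 in 28, never above 5 CPM, so both were left out of the mouse tests. Their values in cultures are near the level of a few reads, since 3 reads in the shallowest culture come to 2.99 CPM. The other 8 genes were above 0 in at least 727 of the 784 cultures, and Tlr7, Tlr13 and Cd14 in every culture.

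LPS is the ligand of TLR4 with CD14, and under it the transcript of the co-receptor rose while that of the receptor did not pass the test. A gene was called higher or lower where the adjusted p (limma, Benjamini-Hochberg over all 16942 genes tested) was under 0.05 and the change at least 1.5-fold on the log2(CPM + 1) scale, which understates changes of low values. In the plot of members in cultures at 24 h, Cd14 ran from 15 to 288.5 CPM (median 112) in 40 untreated cultures and from 175 to 2696 CPM (median 657) in 18 LPS_hi cultures. Most LPS_hi cultures lay above the highest untreated culture, and the ranges overlapped at their edges. The log2 change was 2.58 ± 0.17 (SE, adjusted p = 9.6e-43, limma). Cd14 was higher on each of the 6 plates, by 1.65 to 4.09 on the log2 scale.

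Tlr4 itself ran from 0.368 to 29.3 CPM (median 12.6) untreated and from 2.03 to 20.8 CPM (median 9.80) with LPS_hi, so the ranges overlapped almost wholly. Its log2 change was -0.24 ± 0.28 (SE, adjusted p = 0.582, limma) and was not called. At 4 h the value was -0.84 ± 0.41 (adjusted p = 0.0973, limma) and at 72 h 0.49 ± 0.34 (adjusted p = 0.325, limma). With LPS_lo the changes of Tlr4 were 0.22 ± 0.41 at 24 h and 0.31 ± 0.35 at 72 h, neither called.

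**Figure D1:**
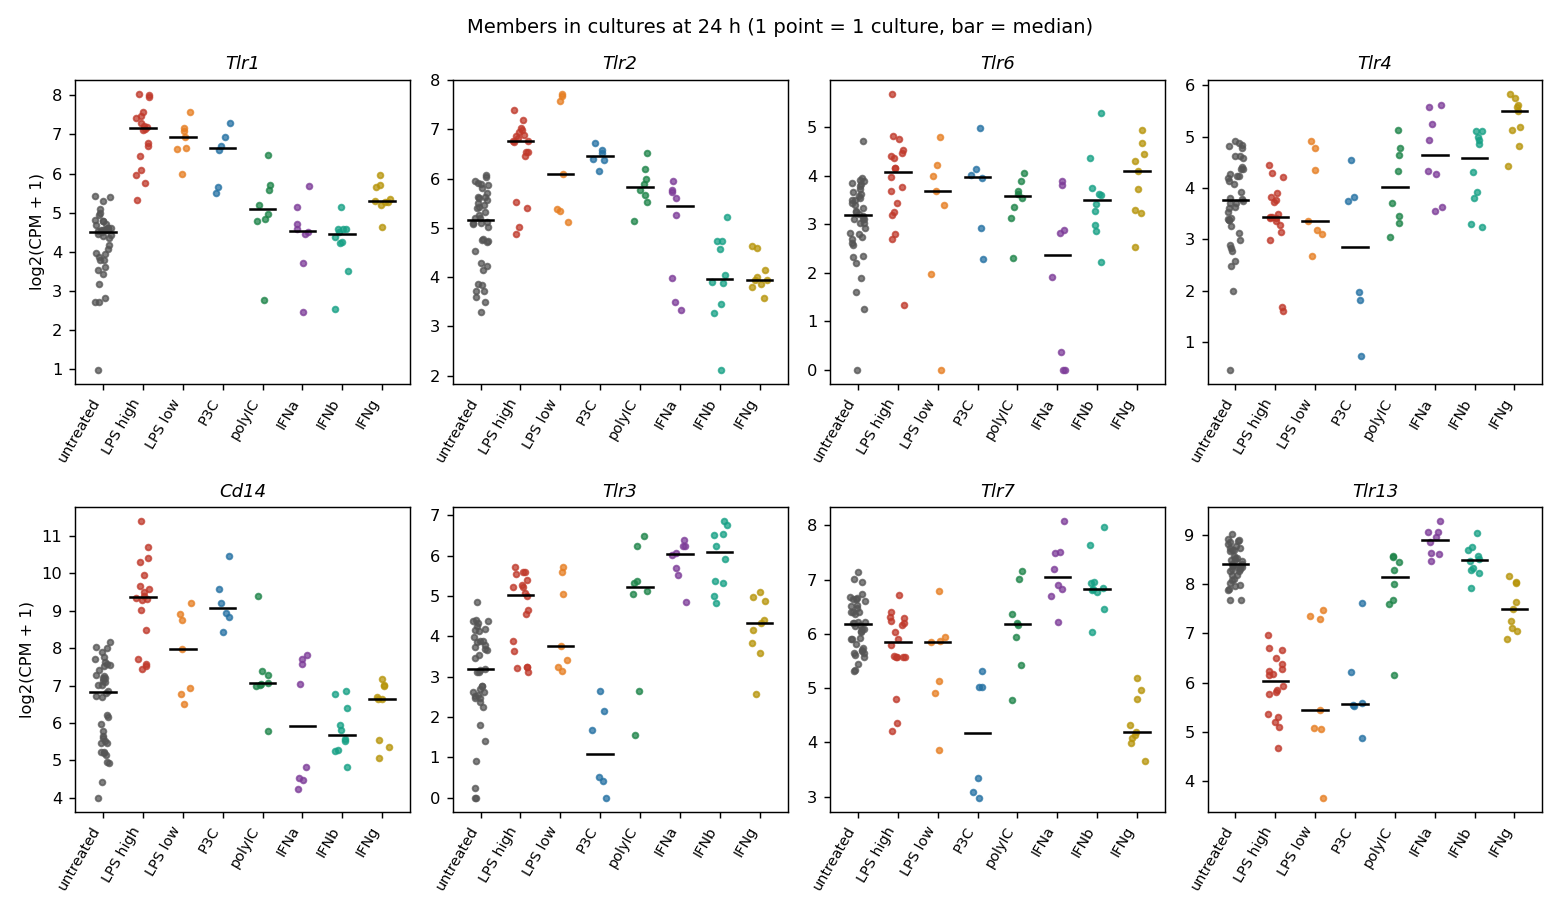
Each point is 1 culture at 24 h, the bar is the median of the group, and the vertical axis is log2(CPM + 1) for 8 genes, with 40 untreated cultures and 6 to 18 cultures per stimulus. Cd14, Tlr1 and Tlr2 sit higher under both LPS doses and P3C, Tlr13 sits lower under them, and Tlr3 is highest under IFNa, IFNb and polyIC.

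The surface receptors for lipopeptides, Tlr1 and Tlr2, rose with LPS. Tlr1 ran from 0.965 to 41.8 CPM (median 21.8) untreated and from 38.7 to 263 CPM (median 142) with LPS_hi at 24 h, so the ranges met only at their edges. The log2 change of Tlr1 was 2.66 ± 0.29 (SE, adjusted p = 4.5e-18, limma). Tlr2 ran from 8.84 to 66.8 CPM (median 34.7) untreated and from 28.4 to 166 CPM (median 108) with LPS_hi, a log2 change of 1.68 ± 0.19 (adjusted p = 1.8e-16, limma). The largest difference in Tlr2 was seen early: at 4 h all 7 LPS_hi cultures lay between 252 and 656 CPM, above every untreated 24 h culture, with a log2 change of 3.32 ± 0.28 (adjusted p = 2.2e-27, limma). Against the 4 h conditions without LPS in place of the untreated wells, the change of Tlr2 was 2.74 ± 0.28.

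Tlr6, the other partner of TLR2, changed less. It ran from 0 to 25.03 CPM (median 8.11) untreated and from 1.52 to 50.6 CPM (median 15.8) with LPS_hi at 24 h. The log2 change was 0.67 ± 0.28 with an adjusted p of 0.0493 (limma), at the edge of the threshold, and the call was lost with a library pool term (adjusted p = 0.0584) and with no filter on low values (adjusted p = 0.0767). At 4 h the change of Tlr6 was 1.16 ± 0.42 (adjusted p = 0.0177, limma), a call also lost with the pool term (adjusted p = 0.072).

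Among the endosomal receptors, Tlr13, which recognises bacterial ribosomal RNA, fell sharply. It ran from 203 to 515 CPM (median 336) untreated and from 24.4 to 124 CPM (median 64.9) with LPS_hi at 24 h, with no overlap between the groups. The log2 change was -2.23 ± 0.16 (SE, adjusted p = 3.6e-38, limma), and it lay between -3.61 and -1.59 within the 6 plates. At 4 h Tlr13 was lower still, 3.45 to 84.0 CPM (median 26.7), a change of -3.93 ± 0.23 (adjusted p = 5.2e-51, limma). In the same samples Tlr3 rose, from a range of 0 to 27.7 CPM (median 8.10) to 7.67 to 51.4 CPM (median 31.7) at 24 h, with a log2 change of 1.38 ± 0.33 (adjusted p = 0.00015, limma). Tlr7 was not called with LPS_hi at any time.

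In all, 6 of 10 members were called with LPS_hi at 24 h (Tlr1, Tlr2, Tlr3, Tlr6 and Cd14 higher, Tlr13 lower), where 29.2% of all genes tested were called. The same 6 were called at 4 h, against 35.7% of all genes. At 72 h the count was 4 (Tlr1, Tlr2 and Cd14 higher, Tlr13 lower), against 20.6%. With LPS_lo it was 6 at 24 h (18.8% of all genes) and 5 at 72 h (12.8%). At 24 h LPS_lo gave log2 changes of 1.84 ± 0.25 for Cd14, 2.83 ± 0.42 for Tlr1 and -2.49 ± 0.23 for Tlr13, and Tlr7 was called lower (-0.81 ± 0.30, adjusted p = 0.0345, limma). That Tlr7 call was lost without the plate term (adjusted p = 0.0859), and at 72 h Tlr7 was higher with LPS_lo (1.14 ± 0.26, adjusted p = 0.00019, limma).

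P3C, the ligand of the TLR1 and TLR2 pair, was followed by higher transcripts of both receptor genes. Tlr2 lay between 70.3 and 105 CPM (median 87.5) in the 6 P3C cultures at 24 h, all above the highest untreated culture at 66.8 CPM, and its log2 change was 1.27 ± 0.30 (SE, adjusted p = 0.00027, limma). Within the 2 plates that held both groups the difference in Tlr2 was 1.22 and 0.93. Tlr1 lay between 44.2 and 156 CPM (median 99.2), again above every untreated culture, with a log2 change of 2.41 ± 0.45 (adjusted p = 2.2e-06, limma). Cd14 rose by 2.94 ± 0.27 (adjusted p = 1.0e-23, limma), from 346 to 1407 CPM in the P3C cultures, and no P3C culture overlapped the untreated range.

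The endosomal receptors Tlr3, Tlr7 and Tlr13 fell with P3C. Tlr13 lay between 28.4 and 196 CPM (median 46.2), below the lowest untreated culture at 203 CPM, a log2 change of -2.54 ± 0.25 (adjusted p = 3.8e-21, limma). Tlr7, a sensor of single-stranded RNA, ran from 39.02 to 140 CPM (median 71.8) untreated and from 6.90 to 38.96 CPM (median 20.2) with P3C, ranges that touched without overlapping, a change of -1.83 ± 0.32 (adjusted p = 2.5e-07, limma). Tlr3 was at 0 to 5.27 CPM (median 1.31) with P3C, and its change of -1.50 ± 0.51 (adjusted p = 0.0214, limma) was called. The Tlr3 values lie near the level of a few reads, and the call was lost with the library pool term (-0.90, adjusted p = 0.286). The 6 members called with P3C at 24 h (3 higher, 3 lower) stand beside 20.0% of all genes.

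polyIC, the ligand of TLR3, was followed by higher Tlr3. The 8 polyIC cultures at 24 h ran from 1.95 to 88.3 CPM (median 36.3), against 0 to 27.7 CPM (median 8.10) in 40 untreated cultures, and most polyIC cultures were above the untreated range. The log2 change was 1.92 ± 0.46 (adjusted p = 0.00058, limma), and within the 2 shared plates it was 1.70 and 1.79. Without the culture that stood nearer to P3C, the change of Tlr3 was 2.41. That culture also held the highest Cd14 (679 CPM), the lowest Tlr13 (70.1 CPM) and the lowest Tlr3 (1.95 CPM) of the 8.

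Cd14 was also called with polyIC at 24 h, from 54.2 to 679 CPM (median 133), with a log2 change of 0.99 ± 0.24 (adjusted p = 0.00075, limma). Without the culture at 679 CPM the change was 0.66 and no longer called (adjusted p = 0.0723), and without the plate term it was 0.74 (adjusted p = 0.161). Tlr1 (0.99 ± 0.40, adjusted p = 0.0972), Tlr2 (0.66 ± 0.26, adjusted p = 0.0989) and Tlr4 (0.62 ± 0.39, adjusted p = 0.433) were not called. The 2 members called with polyIC at 24 h stand beside 10.2% of all genes. The 3 ligand comparisons share their untreated cultures.

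At 72 h Tlr3 with polyIC read 11.2, 5.79, 13.3, 16.3, 52.3 and 0.782 CPM, all but the culture at 52.3 CPM within the untreated 72 h range of 0 to 35.7 CPM (median 9.82), and its change of 0.63 ± 0.54 was not called (adjusted p = 0.53, limma). Without the 2 polyIC cultures nearer to untreated it was 1.29 and still not called (adjusted p = 0.176). Tlr2 was the 1 member called, where 10.3% of all genes were. It read 11.6, 23.9, 38.4, 8.42, 10.9 and 0 CPM with polyIC, against 0 to 42.4 CPM (median 20.9) untreated, so the groups overlapped. The log2 change of -1.13 ± 0.31 (adjusted p = 0.00673, limma) was not called without the plate term (-0.77, adjusted p = 0.154). Without the 2 polyIC cultures nearer to untreated, left out after seeing the data, it was -1.55, and Cd14 was then called lower (-1.22, adjusted p = 0.00385).

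At 72 h with P3C, 4 members were called, where 10.6% of all genes were: Tlr1 (2.70 ± 0.47), Tlr2 (1.17 ± 0.31) and Cd14 (1.14 ± 0.28) higher and Tlr13 (-2.32 ± 0.26) lower. The Tlr1 values at 72 h differed by plate, and untreated Tlr1 had a median of 24.2 CPM on plate 6 and of 0.652, 4.13 and 0.24 CPM on plates 5, 9 and 10. Within plates the Tlr1 difference with P3C was 1.07 and 5.24, and with LPS_hi at 72 h it ran from 0.38 to 4.51. Tlr1 was higher on each of these plates, by sizes that differed between them.

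**Figure D2:**
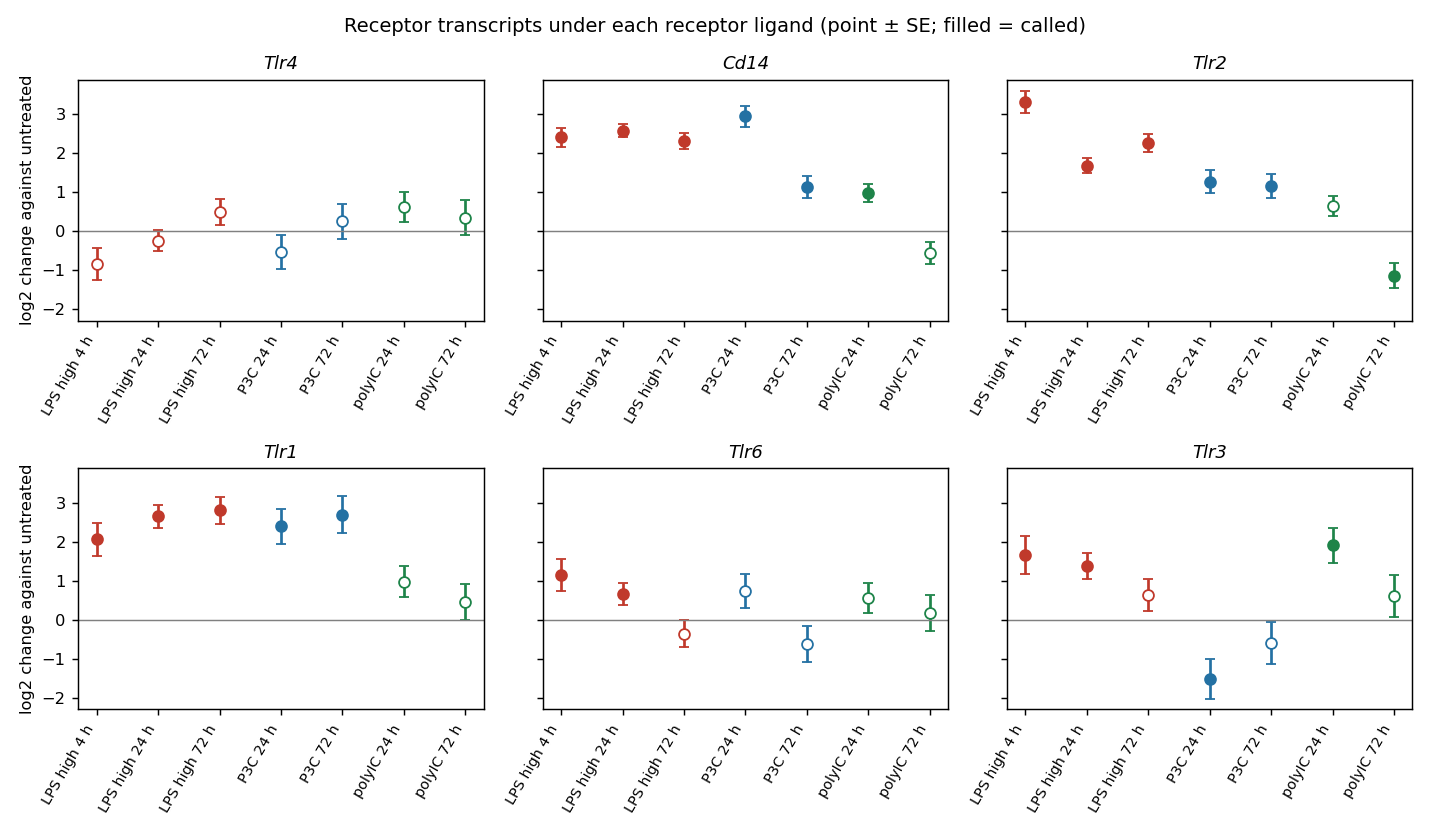
Each panel shows the log2 change of 1 gene against untreated cultures, with bars for the SE, after LPS_hi at 4, 24 and 72 h, P3C at 24 and 72 h and polyIC at 24 and 72 h, filled points being called. Tlr4 has no filled point, Cd14 and Tlr1 and Tlr2 are filled for LPS_hi and P3C throughout, and Tlr3 is above 0 with LPS_hi and polyIC at 24 h and below 0 with P3C at 24 h (-1.50).

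The ligands were compared with each other at 24 h in 3 pairs. Between P3C and polyIC, 4 of 10 members were called, beside 10.2% of all genes: Tlr3 was 10.6-fold lower with P3C (log2 -3.41 ± 0.62, adjusted p = 2.4e-06, limma), Tlr7 (-1.96 ± 0.38) and Tlr13 (-1.98 ± 0.30) were lower and Cd14 (1.96 ± 0.32) was higher. Between LPS_hi and P3C the 2 members called, beside 6.79% of all genes, were Tlr3 (2.88 ± 0.55, adjusted p = 1.5e-05) and Tlr7 (1.46 ± 0.34, adjusted p = 0.00073), both higher with LPS_hi. Without the polyIC culture nearer to P3C, the differences between P3C and polyIC were -3.89 for Tlr3, -2.17 for Tlr7, -2.24 for Tlr13 and 2.28 for Cd14, all called, and Tlr1 was called too (1.61, adjusted p = 0.0339). For Tlr4 the difference between LPS_hi and P3C was 0.29 ± 0.47 and was not called. Between LPS_hi and polyIC 4 were called, beside 5.11%: Cd14 (1.60 ± 0.26), Tlr1 (1.67 ± 0.44) and Tlr2 (1.02 ± 0.29) higher with LPS_hi and Tlr13 (-1.66 ± 0.24) lower. Without that culture these 4 were again called, at 1.92, 1.87, 1.08 and -1.93.

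Change over time was tested as the change at 72 h minus the change at 24 h. Untreated 72 h wells all came from the cell lot Sciencell_May16, while untreated 24 h wells came from that lot only on plate 8. The contrasts pooled all 24 h plates, so differences between times and between cell lots cannot be told apart in them. No contrast was fitted within that lot alone. For LPS_hi only Tlr13 was called (1 of 10, beside 6.29% of all genes), its fall being smaller at 72 h by 0.82 ± 0.25 (adjusted p = 0.0205, limma), and the call was lost on rescaled values. For P3C only Cd14 was called (beside 6.32%), its rise being smaller at 72 h by a change of -1.81 ± 0.39 (adjusted p = 0.00031), a call lost without the plate term. For polyIC Cd14 (-1.55 ± 0.37) and Tlr2 (-1.79 ± 0.41) were called, beside 5.65%. The Cd14 call was lost without the plate term (-1.36, adjusted p = 0.119). Both calls held without the 24 h culture nearer to P3C and, separately, without the 2 cultures nearer to untreated at 72 h.

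Values of the marker lists moved in some of these groups. The summed level of 10 microglia markers was 3463 to 9329 CPM in untreated 24 h cultures, 715 to 2481 CPM with LPS_hi, 1692 to 3533 CPM with P3C and 1883 to 3161 CPM with polyIC. The sum of 8 neutrophil markers was 0 to 23.9 CPM untreated and 70.2 to 288 CPM with P3C at 24 h. Only 2 of those 8 markers had a median above 5 CPM with P3C, and Retnlg, Ngp and Ltf were 0 in all 6 P3C cultures. The sum of 6 monocyte markers ran from 0 to 14.7 CPM untreated and from 0 to 11.1 CPM with P3C. Their part in the results was not tested.

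The interferons, signals that raise antiviral genes, were followed by higher Tlr3 with IFNa and IFNb at 24 h, while Tlr3 with IFNg was not called at that time. With IFNa at 24 h Tlr3 ran from 28.1 to 83.4 CPM (median 64.7) in 8 cultures and with IFNb from 27.6 to 115 CPM (median 67.7) in 10, against at most 27.7 CPM untreated. The log2 changes of Tlr3 were 3.17 ± 0.45 (adjusted p = 4.7e-10, limma) and 2.87 ± 0.41 (adjusted p = 5.2e-10, limma). Tlr7 rose with both, to 73.5 to 268 CPM with IFNa (0.80 ± 0.28, adjusted p = 0.0279) and 64.1 to 248.8 CPM with IFNb (0.98 ± 0.26, adjusted p = 0.00233), ranges that overlapped the untreated one.

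With IFNb both Tlr2 (-1.04 ± 0.24, adjusted p = 0.00036) and Cd14 (-0.76 ± 0.22, adjusted p = 0.00685) fell, and Tlr4 (0.85 ± 0.35, adjusted p = 0.107) was not called. Tlr8 with IFNa read 0, 0, 5.46, 0, 0, 4.14, 2.84 and 0 CPM, and its change of 0.84 ± 0.28 (adjusted p = 0.0202) was called but lost without the plate term. In sum 3 members were called with IFNa (beside 16.5% of all genes) and 4 with IFNb (beside 10.7%).

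With IFNg at 24 h Tlr4 was the member called higher. Tlr4 ran from 20.6 to 56.3 CPM (median 44.03) in 9 IFNg cultures, against 0.368 to 29.3 CPM untreated, a log2 change of 1.35 ± 0.37 (adjusted p = 0.00387, limma). Within 3 plates the difference in Tlr4 was 1.11 to 1.63. Tlr7 fell to 11.7 to 35.6 CPM, below every untreated culture, with a change of -1.70 ± 0.27 (adjusted p = 1.6e-08, limma). Tlr2 (-0.86 ± 0.25) and Tlr13 (-0.71 ± 0.21) also fell, so 4 members were called beside 11.8% of all genes. Tlr1 (0.92 ± 0.38, adjusted p = 0.0923), Tlr3 (0.58 ± 0.43, adjusted p = 0.481) and Tlr6 (0.79 ± 0.37, adjusted p = 0.171) were not called by limma, but a rank-sum test without the plate term called all 3 higher.

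**Figure D3:**
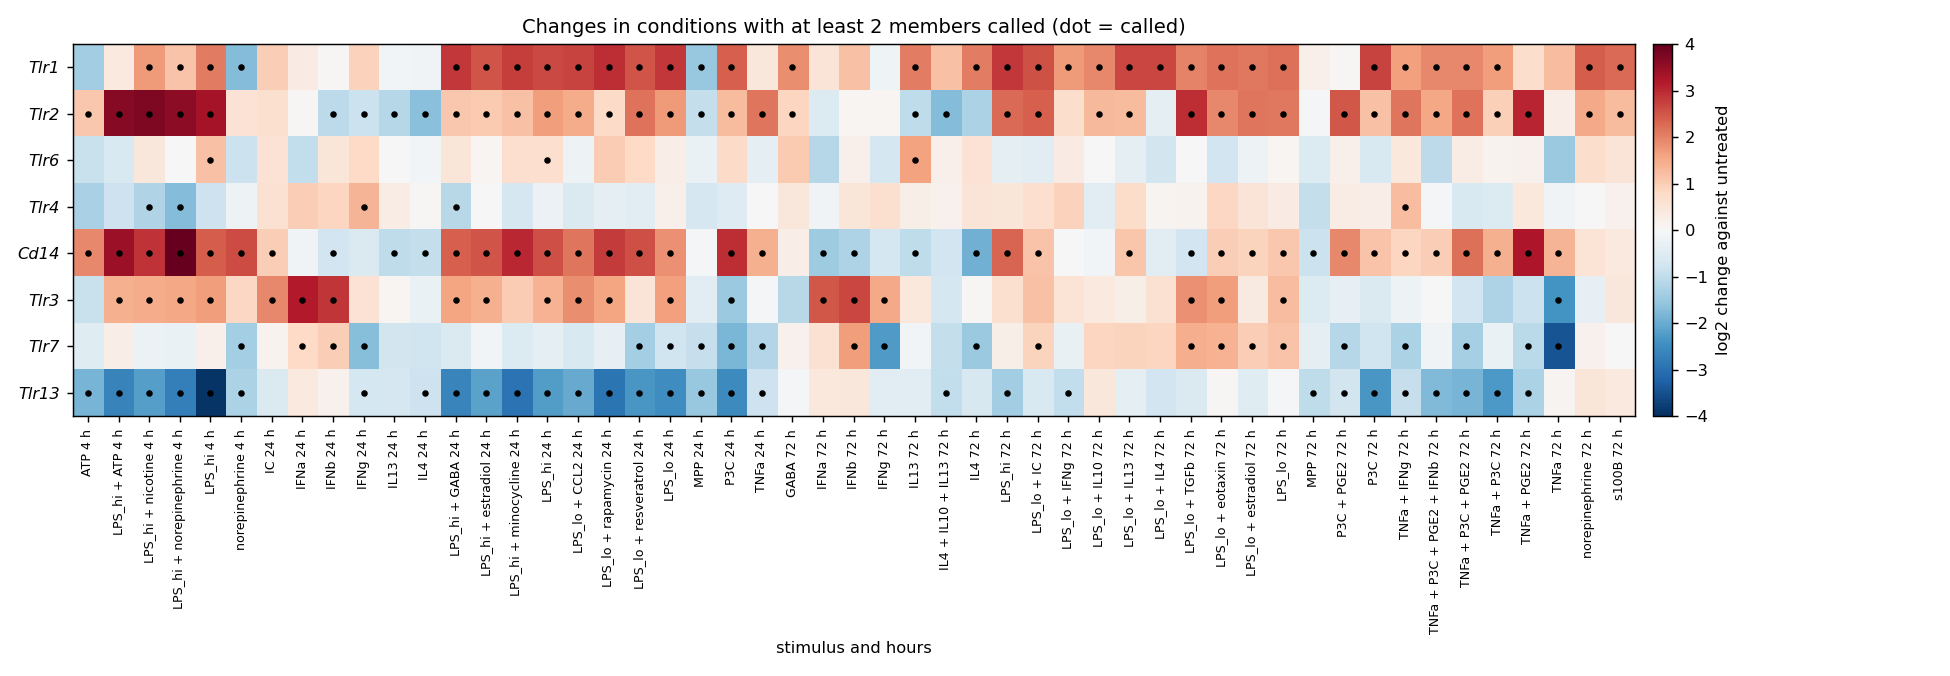
Columns are the 51 conditions in which at least 2 of the members were called against untreated cultures of the same hours. The 4 h conditions were set against 24 h wells. Rows are 8 members, colour is the log2 change clipped at -4 and 4, and a dot marks a call. Tlr13 is lower wherever it is dotted, while Tlr2, Tlr1 and Cd14 are mostly higher, and Tlr4 has few dots.

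Across the other 83 conditions set against untreated wells, 161 of 830 pairs of member and condition were called (103 higher, 58 lower), 19.4% against 7.17% of all gene and condition pairs. Cd14 was called in 37, Tlr2 in 33 and Tlr1 in 31. Tlr4 was called in 4 (1 higher, 3 lower) and Tlr6, Tlr8 and Tlr9 in 1 each. Tlr13 was lower in 23 and higher in none. All these conditions share the untreated cultures of their hours. The Tlr9 call, LPS_lo with IFNg at 72 h, rests on 1 culture at 38.1 CPM, the next being 1.54 CPM, and without that culture Tlr9 fell under the filter and could not be tested.

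Tlr2 was lower with IL4 and IL13, cytokines of type 2 immunity. IL4 at 24 h (0.00005 µg/µl, 11 cultures) gave 4.15 to 21.2 CPM (median 7.73) and a log2 change of -1.66 ± 0.23 (adjusted p = 1.2e-09, limma). IL4, IL10 and IL13 together at 72 h gave 0 to 9.82 CPM (median 5.84), a change of -1.73 ± 0.32 (adjusted p = 9.1e-06). IL13 alone gave -1.15 ± 0.25 at 24 h and -1.02 ± 0.32 at 72 h, both called, and IL4 alone at 72 h gave -1.28 ± 0.43 (adjusted p = 0.0562), not called. IL10 (-0.30 at 24 h and 0.62 at 72 h) and TGFb (-0.01 and 1.08) alone were not called for Tlr2. With TNFa, a pro-inflammatory cytokine, at 24 h (0.000004 µg/µl, 7 cultures) Tlr2 ran from 95.3 to 175 CPM, above every untreated culture, a change of 2.15 ± 0.28 (adjusted p = 1.6e-11). TNFa alone at 72 h gave 22.8, 26.2 and 34.3 CPM on 1 plate, a change of 0.28 ± 0.42 that was not called. With TNFa and PGE2 (prostaglandin E2) at 72 h it was 105 to 265 CPM, a change of 3.06 ± 0.28.

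Cd14 was lower with IL4 at 72 h (8.74, 5.85 and 16.1 CPM on 1 plate, change -1.92 ± 0.38, adjusted p = 7.9e-05) and higher with TNFa and PGE2 (237 to 606 CPM, change 3.24 ± 0.25). The highest level of any condition was at 4 h, where LPS_hi with norepinephrine gave 2049 to 2874 CPM (median 2517, 8 cultures). Norepinephrine alone (1 µM), a neurotransmitter that microglia sense through adrenergic receptors, gave 477 to 1327 CPM at 4 h and a change of 2.6 ± 0.25 (adjusted p = 2.2e-19) against the 24 h untreated wells.

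Tlr3 and Tlr7 were also called with interferons at 72 h. With IFNb, on 1 plate, Tlr3 read 61.1, 88.9, 90.8 and 109 CPM (2.66 ± 0.63) and Tlr7 read 172, 178, 130 and 180 CPM (1.66 ± 0.39). IFNa at 72 h gave Tlr3 of 2.39 to 73.8 CPM (median 22.9), a change of 2.49 ± 0.53 (adjusted p = 0.00012), and IFNg gave 0 to 96.4 CPM (median 36.2), a change of 1.505 ± 0.54 that was called at this time (adjusted p = 0.0318). With IFNg at 72 h Tlr7 was 0.773 to 29.5 CPM (-2.27 ± 0.33, adjusted p = 1.2e-09). TNFa at 72 h, also on 1 plate, gave Tlr7 of 1.01, 2.52 and 6.36 CPM (-3.45 ± 0.44), and Tlr3 was listed at 0 in all 3 of those cultures.

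The order of the 97 conditions by mean level differed by gene. Tlr2 ran from 4.88 to 582 CPM and Cd14 from 10.2 to 2478 CPM, while Tlr4 ran from 5.29 to 40.6 CPM, with IFNg at 24 h at the top. Ranks 95 to 97 for Tlr4 were LPS_hi at 4 h with ATP, nicotine and norepinephrine (mean log2 of 2.47, 2.36 and 1.85). LPS_hi alone at 4 h was at rank 91 (2.61), and untreated 24 h cultures were at rank 47 (3.72). Neighbours in that order rarely stood apart: of 96 gaps, 2 for Tlr2, 1 for Cd14 and 0 for the other members exceeded the SD of both neighbours. For Cd14 that gap lies just under LPS_hi with norepinephrine.

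**Figure D4:**
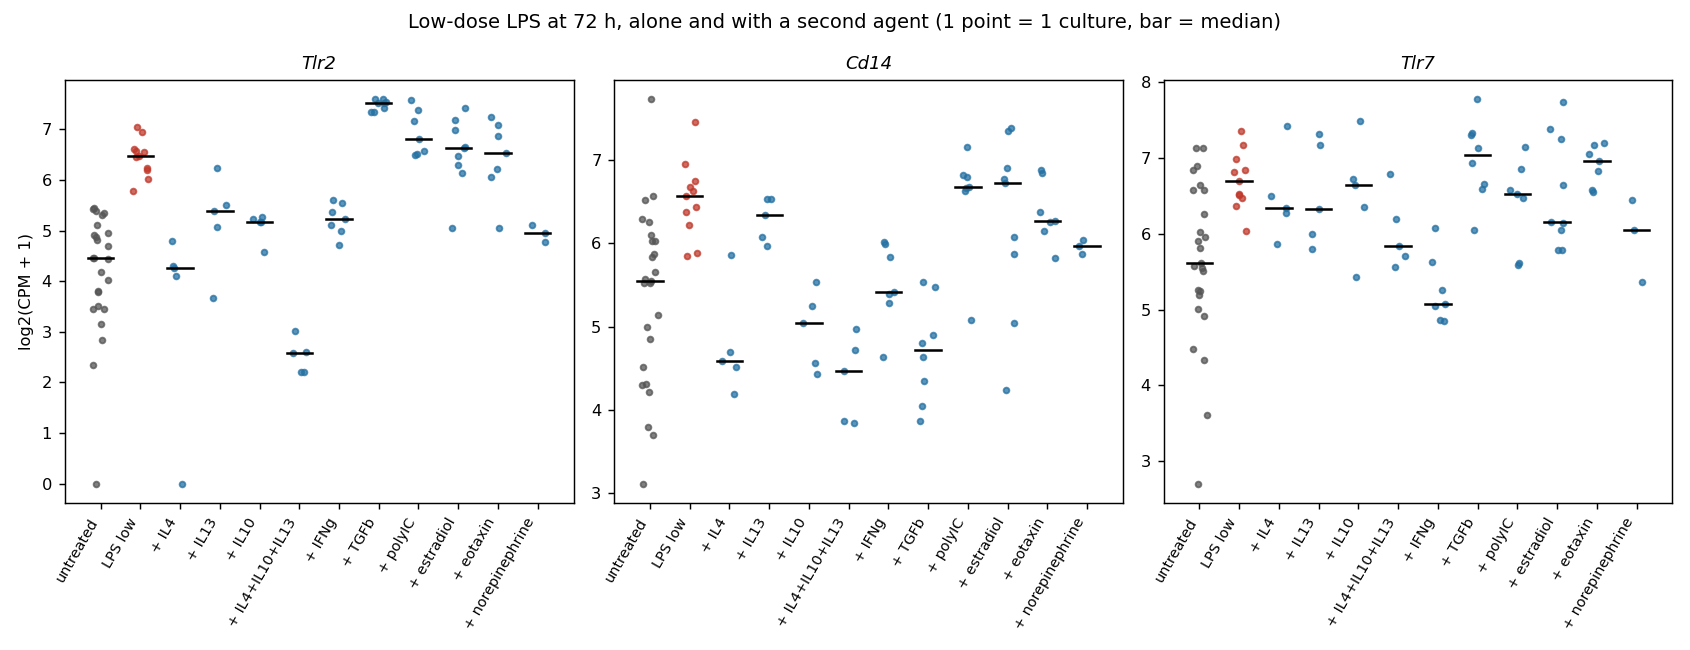
Points are cultures at 72 h and bars medians of log2(CPM + 1) for Tlr2, Cd14 and Tlr7 in untreated wells, LPS_lo alone and LPS_lo with a second agent. Tlr2 is lowest with IL4 + IL10 + IL13 (3.61 to 7.06 CPM), and Cd14 is low with that mix, with IL4 and with TGFb.

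Combinations were then set against LPS alone at the same dose and time, where 17 of 190 member pairs were called (6 higher, 11 lower), 8.95% against 1.77% of all pairs. LPS_lo alone at 72 h gave Tlr2 of 54.3 to 131 CPM (median 87.9). With IL4, IL10 and IL13 added, Tlr2 read 4.98, 7.06, 3.63, 5.11 and 3.61 CPM, all below, a change of -3.36 ± 0.38 (adjusted p = 2.2e-15, limma). With IL4 alone added it read 18.8, 16.2, 26.9, 18.1 and 0 CPM (-2.51 ± 0.38), and with IFNg added 25.3 to 47.8 CPM (-1.40 ± 0.33).

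Cd14 fell with the same additions, by -1.77 ± 0.34 with IL4, IL10 and IL13, by -1.49 ± 0.34 with IL4 and by -1.10 ± 0.30 with IFNg. Cd14 fell with TGFb too, to 13.6 to 45.4 CPM against 56.8 to 175 CPM with LPS_lo alone (-1.84 ± 0.28, adjusted p = 5.4e-08, limma). Tlr2 with TGFb was not called against LPS_lo, though it ran from 161 to 193 CPM against 54.3 to 131 CPM with LPS_lo alone. Tlr7 fell with IFNg (-1.44 ± 0.35). At 4 h, norepinephrine with LPS_hi raised Cd14 above LPS_hi alone by 2.04 ± 0.31 (adjusted p = 4.5e-08, limma). Tlr13 was higher than with LPS_hi alone when nicotine (1.72 ± 0.28), ATP (1.27 ± 0.31) or norepinephrine (1.19 ± 0.28) was added. These Tlr13 comparisons share the same 7 LPS_hi cultures, which ran from 3.45 to 84.0 CPM. The ranges with nicotine (43.2 to 146 CPM), ATP (32.1 to 106 CPM) and norepinephrine (45.3 to 80.5 CPM) overlapped that range. The Cd14 call with IL10 added to LPS_lo (-1.18 ± 0.34) held in 1 of 5 fits that left out a culture.

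In mice, LPS for 4 h raised Cd14 and Tlr2 and lowered Tlr4. Cd14 read 147, 240, 258 and 228 CPM with PBS and 986, 1716, 1117 and 1754 CPM with LPS, with no overlap, a log2 change of 2.65 ± 0.21 (adjusted p = 3.3e-07, limma). Tlr2 read 31.4, 29.6, 34.4 and 41.02 CPM with PBS and 161, 214, 241 and 184 CPM with LPS (2.51 ± 0.16, adjusted p = 2.8e-08). Tlr4 read 23.6, 33.9, 35.6 and 35.4 CPM with PBS and 17.6, 20.9, 14.8 and 10.8 CPM with LPS, again without overlap, a change of -0.98 ± 0.22 (adjusted p = 0.00557). The fall in Tlr4 kept its sign when values were rescaled (-0.83).

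The TLR2 partners rose as well, Tlr1 from 18.6, 32.6, 26.1 and 33.2 CPM to 63.5, 59.0, 54.3 and 46.4 CPM (1.01 ± 0.19, adjusted p = 0.00173) and Tlr6 from 25.3, 25.8, 26.5 and 13.6 CPM to 35.7, 40.1, 49.2 and 36.3 CPM (0.83 ± 0.22, adjusted p = 0.0135). Among the endosomal receptors Tlr7 was called (0.81 ± 0.23, adjusted p = 0.0191), but the call was lost without PBS mouse 1 (0.66, adjusted p = 0.0602), PBS mouse 3 (0.65, adjusted p = 0.0612), LPS mouse 1 (0.75, adjusted p = 0.0535) or LPS mouse 4 (0.78, adjusted p = 0.0505). Tlr13 read 89.7, 113, 109 and 147 CPM with PBS and 170, 151, 168 and 163 CPM with LPS, a change of 0.52 ± 0.15 (adjusted p = 0.023) under the 1.5-fold limit that rescaled values passed (0.68). Tlr3 changed by -0.07 ± 0.13 (adjusted p = 0.738).

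Of 8 members tested, 6 were called, beside 18.1% of 9012 genes. The neutrophil markers summed to 103 to 180 CPM with PBS and 200 to 373 CPM with LPS, and the monocyte markers to 25.98 to 57.8 CPM and 65.7 to 119 CPM, while the microglia markers were 42580 to 53930 CPM and 45560 to 49200 CPM. Within that sum the microglia markers Sall1 (-1.52), Gpr34 (-1.26), P2ry12 (-0.80) and Siglech (-0.59) were called lower with LPS. Of the monocyte markers, Plac8 (2.344), Chil3 (1.516) and Ly6c2 (1.096) were called higher and Ccr2 (-1.895) lower. The neutrophil markers Retnlg (1.954), Ngp (1.394), S100a9 (1.289) and S100a8 (1.077) were called higher, and Ltf (0.56), Camp (0.274) and Cxcr2 (-0.003) were not called. The part of these markers in the results was not tested. Direction in mice and cultures can be set side by side without a test, since the tables were made separately: Tlr13 was lower with LPS_hi in cultures and not lower in mice.

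Tlr2 was the member called with age. It ran from 12.4 to 48.9 CPM (median 40.2) in 11 mice of 2 months and from 26.6 to 86.2 CPM (median 63.4) in 13 of 22 months, ranges that overlapped. Fitted with the block of library numbers, the change was 0.65 ± 0.09 (adjusted p = 9.4e-06, limma), and it was 0.70 (adjusted p = 0.205) in the first block and 0.62 (adjusted p = 0.0002) in the second. The call was lost without the block (0.72, adjusted p = 0.115), by a rank-sum test (adjusted p = 0.154) and with a pseudocount of 5, where the change fell under 1.5-fold. Of 8 members tested 1 was called, beside 3.97% of 9632 genes. Tlr1 (0.45 ± 0.11, adjusted p = 0.00925) and Tlr3 (-0.39 ± 0.10, adjusted p = 0.0104) passed the p limit at less than 1.5-fold, and Cd14 was -0.08 (adjusted p = 0.734). Neutrophil markers summed to 204 to 1381 CPM at 2 months and 405 to 4728 CPM at 22 months, and monocyte markers to 56.5 to 198 CPM and 106 to 616 CPM. The monocyte markers Ly6c2 (1.33), Chil3 (1.17) and Plac8 (0.94) were called higher with age and the microglia marker Gpr34 (-0.83) lower. The part of these markers in the result was not tested.

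**Figure D5:**
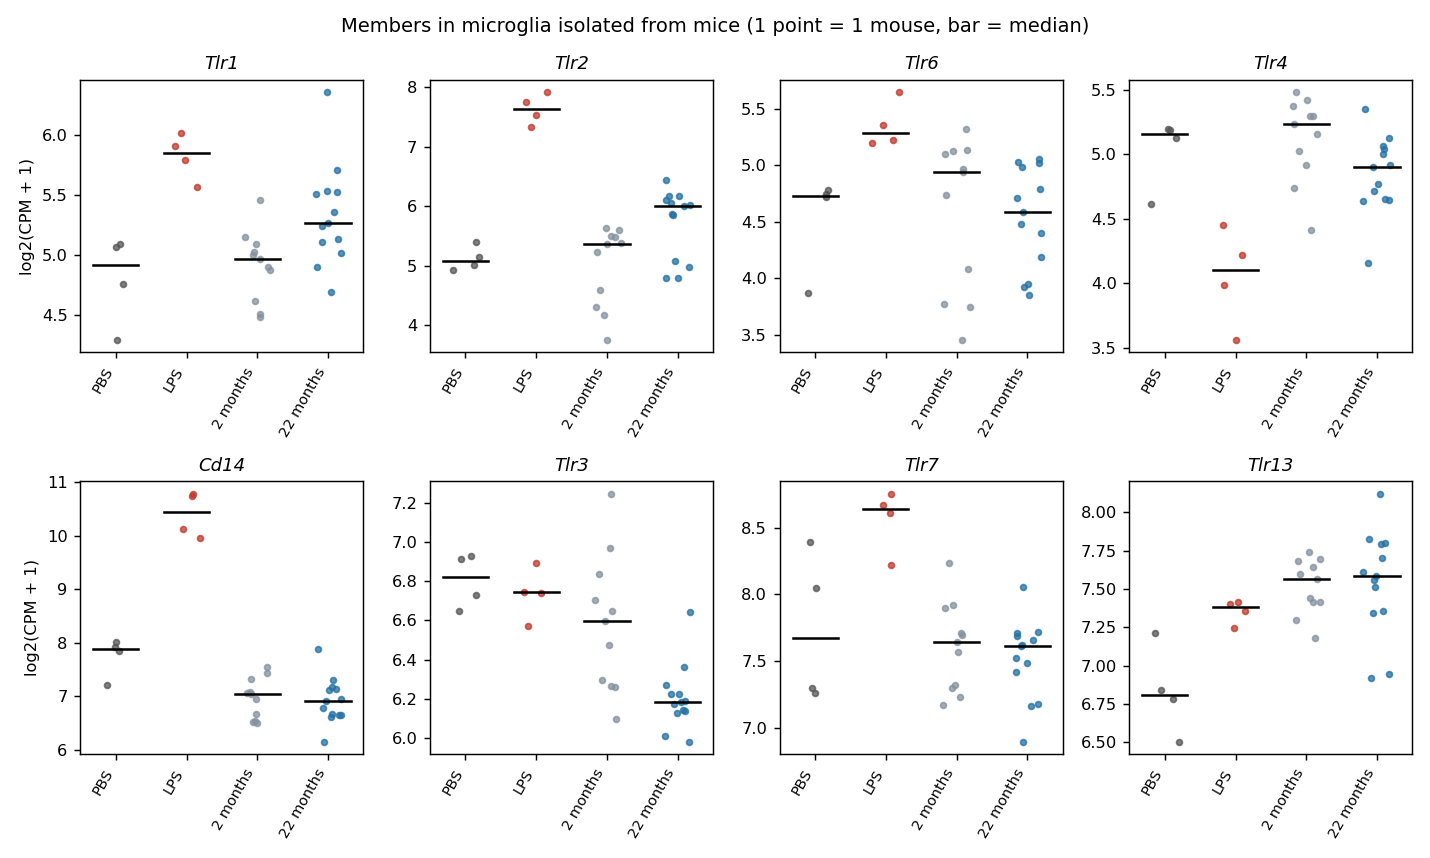
Points are mice and bars medians of log2(CPM + 1) for 8 genes in PBS and LPS mice (4 each) and in mice of 2 months (11) and 22 months (13). Cd14 and Tlr2 are higher with LPS without overlap and Tlr4 is lower, and the age groups overlap in every panel.

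The signalling genes around the receptors were read from lists of 46 genes, 43 of them tested in cultures. With LPS_hi at 24 h 14 were higher and 8 lower (29.2% of all genes called), with P3C 8 and 7 (20.0%), with polyIC 13 and 4 (10.2%), and in LPS mice 15 and 1 of 39 (18.1%). Inhibitors of the pathway (6 tested) included Irak3, Tnfaip3, Nfkbia and Socs1, all higher with LPS_hi (3.80, 2.20, 3.22 and 5.2 on the log2 scale), with P3C (4.36, 1.67, 2.73 and 3.10) and in LPS mice (1.74, 3.38, 3.16 and 2.17). The other inhibitors tested, Tollip and Rnf216, were lower with LPS_hi (-0.62 and -0.60) and with P3C (-0.91 and -1.09). Of the cytosolic RNA sensors, which detect viral RNA outside the endosome, 3 of 4 rose with LPS_hi and with polyIC, Ifih1 by 3.56 and 3.03, while with P3C Ddx58 (-0.18), Ifih1 (0.27) and Dhx58 (0.58) were not called. Unc93b1, the chaperone of endosomal receptors, rose with LPS_hi (0.81) and polyIC (1.03), and Ly96, the partner of TLR4, was 0.37 with LPS_hi and not called. Cd180, a TLR4 relative, fell at 24 h with LPS_hi (-0.82) and P3C (-1.79) and in LPS mice (-1.07). With LPS_hi at 4 h and 72 h Cd180 was not called. It was called higher with LPS_lo at 72 h and, at 24 h, with polyIC, IFNa, IFNb (2.33) and IFNg.

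As a description over the 97 conditions and 9389 genes, the genes whose mean profiles were most like a member's were Nfkbia (r = 0.854) and Relb (0.834) for Tlr2, Marcksl1 (0.888) and Cxcl2 (0.868) for Cd14, Arhgap19 (0.872) for Tlr13, and Gpr85 (0.778) and Vasp (0.777) for Tlr1. For Tlr3 they were Nt5c3 (0.743) and Aida (0.742), for Tlr4 Cmtm3 (0.664) and Tmem173 (0.626), for Tlr7 Mier1 (0.716) and Tdrd7 (0.646), and for Tlr6 Ctnnd1 (0.718) and Manbal (0.674). For Tlr8 (Fxr1 0.509, Snrpe 0.492) and Tlr9 (Clic5 0.648, Gbp4 0.569) most values were 0. Conditions share plates and untreated wells.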

How the data were processed

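The study measured poly(A) RNA of mouse microglia with a 3′-end library kit after T7 amplification of pooled barcoded cDNA. The deposited values are CPM, which the authors made with Salmon 0.7.1 by summing isoform reads per gene and dividing by the mapped reads, with no division by length. The paper calls its gene-level values TPM, while the method it describes divides by no length, and they are called CPM here. The submitters' processing notes also name the build mm8, and the paper's methods an Ensembl annotation. Shallow samples were removed by the authors. Counts were not analysed here, and 69.05% of low culture values and 78.24% of low mouse values were whole multiples of a step within 0.02, so reads were not recovered.

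Values were tested as log2(CPM + 1) with limma 3.58.1 (R 4.3.3, trend), genes above 5 CPM in at least 4 cultures (4 mice for LPS, 11 for aging) being kept, with plate as a term in cultures and the block of library numbers for aging. All cultures entered 1 fit. P-values were Benjamini-Hochberg adjusted over all genes of a comparison, and calls needed an adjusted p under 0.05 and 1.5-fold. Scripts were tested on simulated data. Named were all 10 members, list genes by counts, and for each member the 2 genes with the most similar profile, of which 1 is not reported here. Members and lists were chosen with earlier results of these data known. Promoters were searched in RefSeq windows (GRCm38.p6), and gene positions came from GENCODE on GRCm38. Alternatives covered plate and pool terms, pseudocounts of 0.5 and 5, filters, rescaling, a rank-sum test, the minimum fold and left-out samples. 1 culture whose name and dose disagree entered no comparison.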

Additional observations from a re-analysis of the deposited data

Results flagged for a closer look

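Dixon's test at its 95% level marked 8 of 94 group and gene sets, and chance marks about 1 in 20. In the polyIC cultures at 24 h, 1 culture was far below the rest for Tlr1 (5.83 CPM), and another was far from the rest for Tlr13 (70.1 CPM, low) and Cd14 (679 CPM, high). In LPS_hi at 4 h, 1 culture was low for Tlr3 (5.17 CPM) and 1 for Tlr4 (0 CPM). Tlr13 was low in 1 P3C culture at 72 h (20.6 CPM). Among PBS mice, 1 was low for Tlr4 (23.6 CPM) and 1 for Tlr6 (13.6 CPM).

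The change at 72 h differed from the change at 24 h, by limma, for Tlr13 with LPS_hi (0.82), Cd14 with P3C (-1.81), Cd14 with polyIC (-1.55) and Tlr2 with polyIC (-1.79).

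A 72 h culture whose name and dose disagree, used in no comparison, held Tlr2 of 134.9 CPM and Tlr4 of 42.3 CPM, above the highest untreated culture of that time.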

How the results depend on the processing

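No paired analysis was possible because the labels carry no replicate numbers shared between groups. Over 2064 values of 196 results for single members, 1955 kept their direction and side of the threshold, 68 lost the call, 41 gained one and 0 reversed, and 62 called in neither setting changed sign. The number of members called was 2 for polyIC at 24 h, and 4 with rescaling or with cultures of the same hours alone, 1 without the culture nearer P3C and 1 at 2-fold. For polyIC at 72 h it was 1, and 0 without a plate term, with the same hours alone or with a rank-sum test, and 2 with a pseudocount of 5 or without the 2 cultures nearer untreated, an alternative chosen after seeing the data. For IFNa it was 3, and 5 with the same hours alone and 1 at 2-fold. For IFNb it was 4, and 2 at 2-fold. For IFNg it was 4, and 7 by rank-sum and 2 at 2-fold. LPS_lo at 24 h had 6, and 3 by rank-sum, and P3C against polyIC 4, and 0 by rank-sum. The change over time had 1 for LPS_hi, and 2 without a plate term and 0 with rescaling or at 2-fold. For P3C it had 1, and 0 without a plate term or with a pool term, and for polyIC 2, and 1 without a plate term. LPS mice had 6, and 3 at 2-fold, 5 to 7 when leaving out a mouse, and 0 by rank-sum, whose smallest p is 0.0286. Aging had 1, and 0 with a pseudocount of 5, without the block, in the first block, by rank-sum or at 2-fold, and 3 with no minimum change. The causes were not tested. Other conditions had 161 calls (143 to 164, and 138 at 2-fold) and combinations 17 (14 to 19). Rescaling moved the median of all genes from -0.34 to -0.18 for LPS_hi at 4 h and from -0.19 to -0.04 in LPS mice. Within plates, 172 of 178 called pairs kept 1 direction on every shared plate and 6 did not. In conditions of 3 to 5 cultures, 18 of 27 calls held each time a culture was left out. Low values limit Tlr8 and Tlr9 most.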

Other observations

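Of the family members outside the 10, Tlr12 was above 0 in 71 of 784 cultures and in all 32 mouse samples (median 37.5 CPM), Tlr5 in 33 cultures and Tlr11 in 19. Tlr12 was higher with IFNg at 24 h, with a log2 change of 2.65 ± 0.11 (adjusted p = 2.0e-91, limma), and by 0.60 in mice of 22 months. In cultures Tlr12 was 0 in 713 of 784, above 5 CPM in 12 and at most 13.99 CPM, so its change there rests on low values. The SE comes from the spread over all cultures, most of them at 0.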
